A study of Rattus norvegicus with 7 samples.

Results

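The genes described here are the writers, erasers and readers of DNA methylation in rat cerebellum, 9 genes chosen by name: the writers Dnmt1, Dnmt3a and Dnmt3b with the maintenance cofactor Uhrf1, the erasers Tet2 and Tet3, and the readers Mbd1, Mbd2 and Mbd3. They were found on the array by looking up the transcript that each probe was designed on in RefSeq. Of the 9 genes, 6 matched a probe (Dnmt1, Dnmt3a, Tet3, Mbd1, Mbd2 and Mbd3), each with 1 probe, and 5 of these gave a signal above background and were tested among 19991 genes and unnamed probes. Dnmt3b, Tet2 and Uhrf1 matched none and have no value here. Of the features tested, 8025 were probes that the RefSeq table did not name, so the array may hold probes for these genes that the lookup missed. RNA came from ground cerebellum of female Wistar pups aged 21 days. Dams of the 4 control pups (CTRL) ate a standard diet, and dams of the 3 pups with methyl donor deficiency (MDD) ate one poor in vitamin B12, folate and choline. Both diets ran from 1 month before pregnancy to weaning at day 21. The labels call the pups biological replicates but name no dams or litters, so the p-values measure the spread between pups.

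DNA methylation marks cytosines that precede guanines. Dnmt3a and Dnmt3b set new marks, and Dnmt1, guided by Uhrf1 to freshly copied DNA, carries existing marks through cell division, in each case taking the methyl group from S-adenosylmethionine, whose supply depends on folate, vitamin B12 and choline. Tet enzymes oxidise the mark, which base excision repair can then replace with plain cytosine, and proteins of the Mbd family bind methylated DNA or join complexes that do, and recruit histone deacetylases. In the brain, Dnmt3a and the Tet enzymes act in neurons that have stopped dividing as well as in precursors.

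The values are log2 intensities of 1-colour arrays relative to each array's 75th percentile, so 0 is the level of a fairly bright spot. On the 7 arrays, between 74.1% and 79.6% of spots were well above background and 0 were saturated. Markers of the cerebellum were present on every array (Gabra6 of granule neurons between 1.82 and 3.1, Pcp2 of Purkinje cells between 5.23 and 6.36). The number of arrays limits the precision.

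Of the 5 members measured, 1 was lower in MDD (Tet3), 1 was higher (Mbd3) and 3 did not pass the test (Dnmt3a, Mbd1 and Mbd2). The test was limma over all genes with Benjamini-Hochberg adjustment and a threshold of 0.05. It called 20.6% of all 19991 genes and probes, 12.6% higher and 7.96% lower, so 2 calls among 5 genes do not mark these genes out. The groups did not overlap for 36.6% of all genes and probes (19.9% higher and 16.7% lower in MDD), and for 3 of the 5 members (Dnmt3a and Tet3 lower, Mbd3 higher). A lower value in whole tissue can mean fewer cells of a type or less RNA in each, and these cannot be told apart in these samples.

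**Figure D1:**
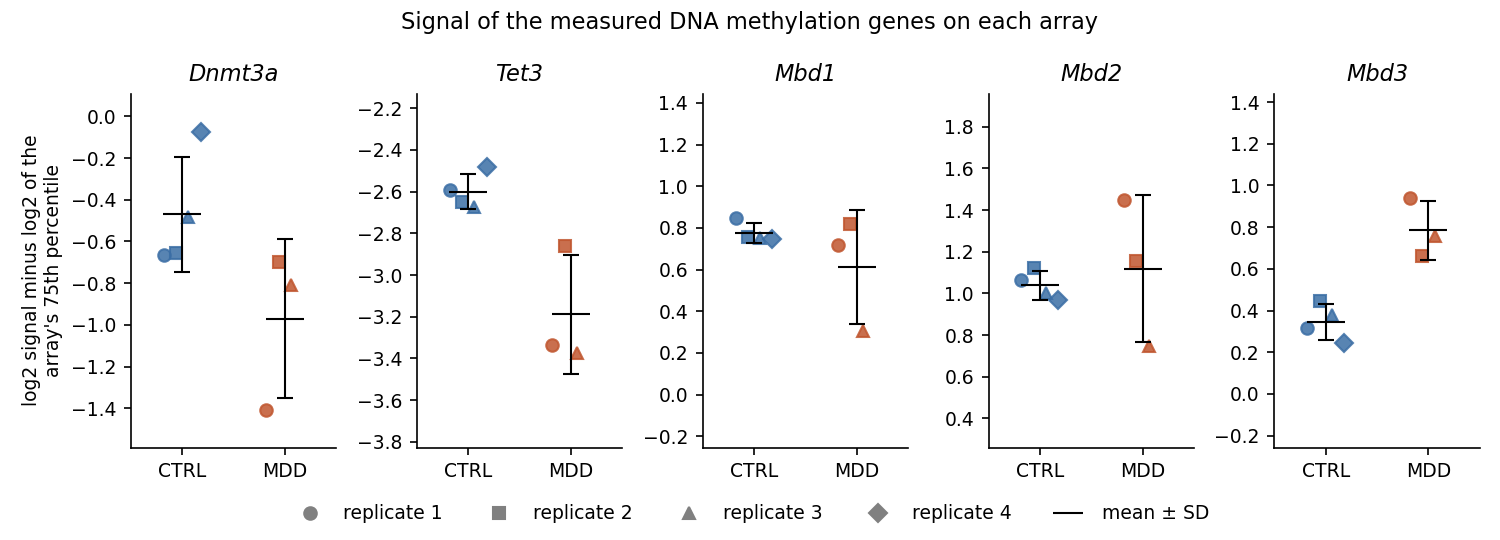
Log2 signal relative to the array's 75th percentile (y axis) for the 5 measured members in CTRL (blue, n = 4) and MDD (orange, n = 3). Each symbol is 1 pup, the bars are the mean and SD, and every panel spans the same log2 range. For Tet3 and Dnmt3a all MDD pups lie below all CTRL pups, for Mbd3 all lie above, and for Mbd1 and Mbd2 the groups overlap.

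Among the writers, Dnmt3a, the enzyme that sets new methyl marks in neurons, had a lower mean in MDD without passing the test. Its log2 signal was -0.66, -0.66, -0.48 and -0.07 in the 4 CTRL pups and -1.41, -0.70 and -0.81 in the 3 MDD pups. Every MDD pup lay below every CTRL pup, but by little, since MDD replicate 2 at -0.70 sat next to CTRL replicates 1 and 2 at -0.66. CTRL replicate 4 was the highest and MDD replicate 1 the lowest. The CTRL mean was -0.47 ± 0.28 (SD, n = 4), and that of MDD was -0.97 ± 0.38 (SD, n = 3). By limma the change was -0.50 (95% confidence interval -0.99 to -0.01, SE 0.22, adjusted p = 0.123). Leaving out MDD replicate 1 brought it to -0.28. In the authors' deposited table the groups overlapped. Its 4 CTRL columns ran from 968 to 1539 and its 3 MDD columns from 663 to 1012. The probe had 2 spots on each array, whose log2 values differed with an SD between 0.0108 and 0.137, well under the spread between pups.

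Dnmt1, the maintenance enzyme, could not be measured with its probe. On the 7 arrays its 14 spots had raw median signals between 42.3 and 63.5 intensity units per array over a local background of 22.5 to 26.5, and 0 of them were well above background. No fold is given, because no spot in either group was well above background, and the low signal of this probe is no measure of Dnmt1 in the tissue.

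Of 11 other writers and maintenance cofactors listed, 10 were tested, with 0 higher and 2 lower. This is 20%, near the 20.6% of all genes and probes called. The median log2 change was -0.15, against -0.03 for all genes and probes. Usp7, the deubiquitinase that stabilises Dnmt1 and Uhrf1, was 1.36-fold lower and lay at the threshold (log2 -0.45, SE 0.14, adjusted p = 0.04997). It passed in few other settings, and under the other between-array scalings the adjusted p was 0.0571 with quantile normalization and 0.0632 with median scaling. Trdmt1, a relative of the Dnmt family that methylates transfer RNA, was 1.38-fold lower (log2 -0.46, SE 0.12, adjusted p = 0.0342). Its change shrank to -0.19 with normexp background correction and to -0.18 in the authors' deposited table, both without a call. Leaving out any single array other than MDD replicate 2 ended both calls.

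Tet3, one of the enzymes that oxidise methylated cytosine, was the member with the smallest p. Its log2 signal was -2.59, -2.65, -2.67 and -2.48 in the CTRL pups and -3.33, -2.86 and -3.37 in the MDD pups. The 4 controls sat within a narrow band, all MDD pups lay below it, and MDD replicate 2 was the closest to it. The mean fell from -2.60 ± 0.08 (SD, n = 4) to -3.19 ± 0.29 (SD, n = 3), which is 1.5-fold lower (log2 -0.59, 95% confidence interval -0.94 to -0.24, SE 0.15, limma adjusted p = 0.0319). The probe is a single spot on each array and so has no technical replicate. Its raw median signal ran from 135.5 to 353 intensity units over a local background of 26.0 to 32.0, and it was well above background on all 7 arrays. In the authors' deposited table, whose columns name the group but not the pup, Tet3 stood between 259 and 306 in the 4 CTRL columns and between 178 and 248 in the 3 MDD columns. The sign held in every setting tried. The call was lost with quantile normalization (-0.49, adjusted p = 0.0566), normexp background correction (-0.42, 0.0516), the authors' deposited table (-0.40, 0.0530) and no filter on dim probes (-0.59, 0.0698). Leaving out any array except MDD replicate 2 also ended it, with an adjusted p between 0.0670 and 0.0877.

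RefSeq lists several starts for Tet3 in the rat assembly GRCr8, 2 of them 1 base apart. The 250 bases before 3 of them are shown because the CpG content differs between them, while the array has 1 matched probe for the gene. Whether transcripts from each start carry the target of that probe was not checked. Capitals mark each CG, the dinucleotide that these enzymes act on, and sequences run 5′ to 3′ on the minus strand of the gene.
Tet3, chr4:117525496-117525745, minus strand: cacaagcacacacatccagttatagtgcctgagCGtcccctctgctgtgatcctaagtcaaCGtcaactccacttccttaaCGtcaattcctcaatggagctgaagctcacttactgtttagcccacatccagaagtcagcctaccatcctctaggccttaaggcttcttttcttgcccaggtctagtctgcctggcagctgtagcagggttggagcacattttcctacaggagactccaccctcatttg
Tet3, chr4:117521046-117521295, minus strand: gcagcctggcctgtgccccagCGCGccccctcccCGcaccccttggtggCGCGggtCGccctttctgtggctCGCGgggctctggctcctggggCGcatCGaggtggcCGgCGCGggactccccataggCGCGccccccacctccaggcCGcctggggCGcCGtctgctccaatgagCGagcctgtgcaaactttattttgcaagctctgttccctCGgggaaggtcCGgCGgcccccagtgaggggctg
Tet3, chr4:117507003-117507252, minus strand: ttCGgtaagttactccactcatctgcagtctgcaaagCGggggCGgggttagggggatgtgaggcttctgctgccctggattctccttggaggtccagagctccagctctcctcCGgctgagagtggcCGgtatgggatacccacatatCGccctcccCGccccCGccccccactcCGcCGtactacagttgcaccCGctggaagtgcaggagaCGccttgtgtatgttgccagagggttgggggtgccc
The farthest upstream start has 3 CG in its 250 bases, the middle start 22 and the downstream start 12. Of 33469 windows of the same length in the RefSeq table, 71.4%, 13.7% and 31.5% hold at least as many, and the median window holds 5. The GC box GGGCGG, read on both strands and overlapping a CG by its own letters, occurs 0, 0 and 3 times in these windows and in 30.5% of all windows. Methylation itself was not measured, and which start the Tet3 signal comes from is not known from these arrays.

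Of 14 other genes of erasure and base excision repair, 11 were tested, with 2 higher, 1 lower and a median log2 change of 0.11. The calls made up 27.3% of the 11, against 20.6% of all genes and probes, so they do not mark the list out. Ogt, the O-GlcNAc transferase that binds Tet proteins, was 1.94-fold lower. Its log2 signal was 0.88, 0.72, 0.67 and 0.89 in CTRL and -0.66, 0.21 and -0.06 in MDD, where MDD replicate 1 was the lowest. The log2 change was -0.96 (SE 0.20, limma adjusted p = 0.0180), a second probe of the gene gave -1.17, and leaving out CTRL replicate 4 ended its call (adjusted p = 0.0580). Apex1, the endonuclease that cuts the DNA strand once a damaged or oxidised base has been removed, had a 1.62-fold higher signal in MDD (log2 0.70, SE 0.13, adjusted p = 0.0124). All MDD pups (1.97 to 2.24) exceeded all CTRL pups (1.30 to 1.58), and the call held with each single array left out. Ung, the glycosylase that removes uracil from DNA, was 1.48-fold higher (log2 0.57, SE 0.16, adjusted p = 0.0373), and its change dropped to 0.33 with normexp correction, without a call. Leaving out any single array except MDD replicate 3 ended the Ung call.

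The readers of the Mbd family did not move together. Mbd3, which binds methylated DNA weakly and serves as a core subunit of the NuRD deacetylase and remodelling complex, was higher in MDD. Its log2 signal was 0.32, 0.45, 0.38 and 0.24 in CTRL and 0.94, 0.66 and 0.76 in MDD. The lowest MDD pup, replicate 2, stood above the highest control, also replicate 2. The mean rose from 0.35 ± 0.09 (SD, n = 4) to 0.79 ± 0.14 (SD, n = 3), or 1.36-fold (log2 0.44, 95% confidence interval 0.16 to 0.72, SE 0.12, limma adjusted p = 0.0378). Its 2 spots on an array differed with an SD between 0.0258 and 0.227, the upper end of which exceeds the SD between pups of either group. The authors' deposited table placed Mbd3 between 1766 and 2172 in CTRL columns and between 2356 and 2845 in MDD columns. The direction was kept under each alternative. The call was lost with quantile normalization (0.36, adjusted p = 0.0605), normexp background correction (0.41, 0.0576) and no filter on dim probes (0.44, 0.0807), and held in the authors' deposited table (0.41, 0.0329). Without any array other than MDD replicate 2 the adjusted p was between 0.0578 and 0.104.

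The 250 bases before the RefSeq start of Mbd3 (GRCr8) are shown as those of the member that was higher, with each CG in capitals.
Mbd3, chr7:9963390-9963639, plus strand: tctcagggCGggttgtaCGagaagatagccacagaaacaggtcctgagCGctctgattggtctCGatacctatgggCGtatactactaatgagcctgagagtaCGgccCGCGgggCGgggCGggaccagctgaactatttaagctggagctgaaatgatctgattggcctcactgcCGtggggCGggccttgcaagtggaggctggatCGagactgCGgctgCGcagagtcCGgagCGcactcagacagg
It holds 17 CG, a number that 21.9% of all windows reach, and 4 copies of GGGCGG over both strands. The Mbd3 window is thus richer in CG than the farthest upstream Tet3 window (3) and the downstream one (12), and below the middle one (22).

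Mbd2, the family member with strong affinity for methylated DNA and the alternative to Mbd3 in NuRD, had nearly equal group means. Its log2 signal was 1.07, 1.12, 1.0 and 0.97 in CTRL and 1.45, 1.15 and 0.75 in MDD. The MDD pups lay both above and below the controls. The CTRL mean was 1.04 ± 0.07 (SD, n = 4) and the MDD mean 1.12 ± 0.35 (SD, n = 3), a log2 change of 0.08 (95% confidence interval -0.31 to 0.46, adjusted p = 0.758). The sign turned with quantile normalization (-0.04), in the authors' deposited table (-0.01) and without MDD replicate 1 (-0.09), and without MDD replicate 3 the change was 0.26. Mbd2 had the most spots of any member, 10 on each array, whose log2 values varied with an SD between 0.0453 and 0.0726.

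Mbd1, a reader that also binds unmethylated CpG through a zinc finger, likewise showed no change past the threshold. Its log2 signal was 0.85, 0.76, 0.75 and 0.75 in CTRL and 0.72, 0.82 and 0.30 in MDD. MDD replicate 3 lay far below the controls and MDD replicate 1 just below them, while MDD replicate 2 lay within their range, so the groups overlapped. The means were 0.78 ± 0.05 (SD, n = 4) and 0.61 ± 0.27 (SD, n = 3), a log2 change of -0.16 (95% confidence interval -0.49 to 0.17, adjusted p = 0.433). Without MDD replicate 3 it was -0.01. The Mbd2 interval reaches 0.46, so a rise of the size seen for Mbd3 (0.44) lies within it. The Mbd1 interval ends at 0.17 and holds no such rise. It reaches -0.49, so a fall of that size lies within it.

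**Figure D2:**
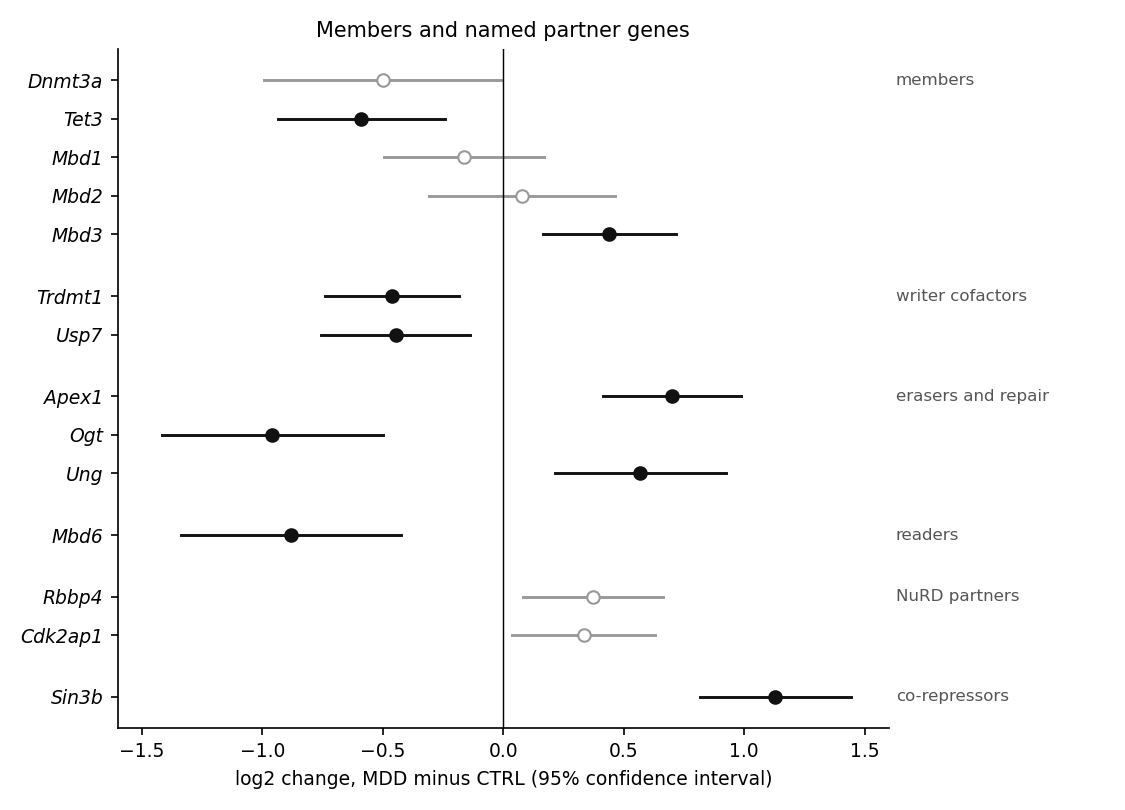
Log2 change of MDD minus CTRL (x axis) with its 95% confidence interval for the 5 members and the named partner genes, grouped by role. Filled black points have an adjusted p under 0.05 and open grey points do not. Tet3 (-0.59) lies left of 0 with Ogt (-0.96) and Mbd6 (-0.88), and Mbd3 (0.44) lies right of it with Apex1 (0.70), Ung (0.57) and Sin3b (1.13).

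Of 6 other readers, 3 were tested, with 0 higher and 1 lower. That gene was Mbd6, a protein with an Mbd domain, at 0.16, -0.27, -0.11 and 0.14 in CTRL and -0.97, -0.49 and -1.25 in MDD, without overlap. It was 1.84-fold lower (log2 -0.88, SE 0.20, limma adjusted p = 0.0222), and lost the call when CTRL replicate 1, 3 or 4 or MDD replicate 1 or 3 was left out (adjusted p from 0.0523 to 0.0666). Among 13 NuRD partners of Mbd2 and Mbd3, 9 were tested and 0 passed by limma (3 had an unadjusted p under 0.05), with a median change of 0.08. The smallest p belonged to the histone-binding subunit Rbbp4 (log2 0.37, SE 0.13, adjusted p = 0.0697), whose second probe gave 0.13, and to Cdk2ap1 (log2 0.33, SE 0.13, adjusted p = 0.0971), whose sign turned with quantile normalization (-0.08) and in the authors' deposited table (-0.04). Of 10 other co-repressors of the readers, 8 were tested, with 1 higher and 0 lower. Sin3b, a scaffold of histone deacetylase complexes, had a 2.19-fold higher signal in MDD (log2 1.13, SE 0.14, adjusted p = 0.00978). Its CTRL pups ran from 1.35 to 1.69 and its MDD pups from 2.44 to 2.79, and the call held with each single array left out. Over the partner lists together, 41 of 54 genes were tested, and 3 were higher and 4 lower (17.1%, against 20.6% of all genes and probes).

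Ratios of 2 members on the same array do not depend on a constant factor per array, though quantile normalization does move them, and are given as values with no test because the pairs were chosen with the results known. The log2 ratio of Mbd3 to Tet3 was 2.91, 3.1, 3.05 and 2.73 in CTRL and 4.27, 3.52 and 4.13 in MDD. The groups were apart on this scale, with means of 2.95 ± 0.17 (SD, n = 4) and 3.97 ± 0.40 (SD, n = 3), a shift of 1.03. That separation was fixed in advance, because all MDD pups lay above the CTRL pups for Mbd3 and below them for Tet3. The shift is the change of Mbd3 less that of Tet3 and adds nothing to these 2 values. Mbd3 relative to Mbd2 was between -0.75 and -0.62 in CTRL and at -0.51, -0.49 and 0.01 in MDD. The shift was 0.36, and the ratio was highest in MDD replicate 3, where Mbd2 was lowest. Dnmt3a relative to Tet3 overlapped between groups, with means of 2.13 ± 0.22 (SD, n = 4) and 2.22 ± 0.32 (SD, n = 3). These differences within a gene pair show unequal change between the 2 genes, not levels of one gene against the other.

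Across all named genes the median change fell with gene length. Tet3, Dnmt3a and Mbd3 had the sign of the median of genes of like length, and Mbd1 and Mbd2 had the opposite sign. Among the 2393 genes with the longest genomic span (65.2 kb and more), the median log2 change was -0.24, and 14.5% were lower and 1.84% higher. Tet3 (100 kb) and Dnmt3a (114 kb), with changes of -0.59 and -0.50, belong to those genes, as does Mbd2 (66.9 kb), with 0.08. Mbd3 (9.79 kb) and Mbd1 (14.7 kb) belong to the 2393 genes between 6.41 and 14.8 kb, where the median was 0.14 and 16.6% were higher and 2.72% lower. After a fit of length and signal had been subtracted from every array, the change was -0.37 for Tet3 (adjusted p = 0.0965), -0.32 for Dnmt3a (0.310) and 0.30 for Mbd3 (0.0963), so no member was called. Under the same adjustment Sin3b (1.06, adjusted p = 0.0188), Ogt (-0.92, 0.0301) and Mbd6 (-1.0, 0.0308) stayed past the threshold, and Apex1 (0.33, 0.0637) did not.

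**Figure D3:**
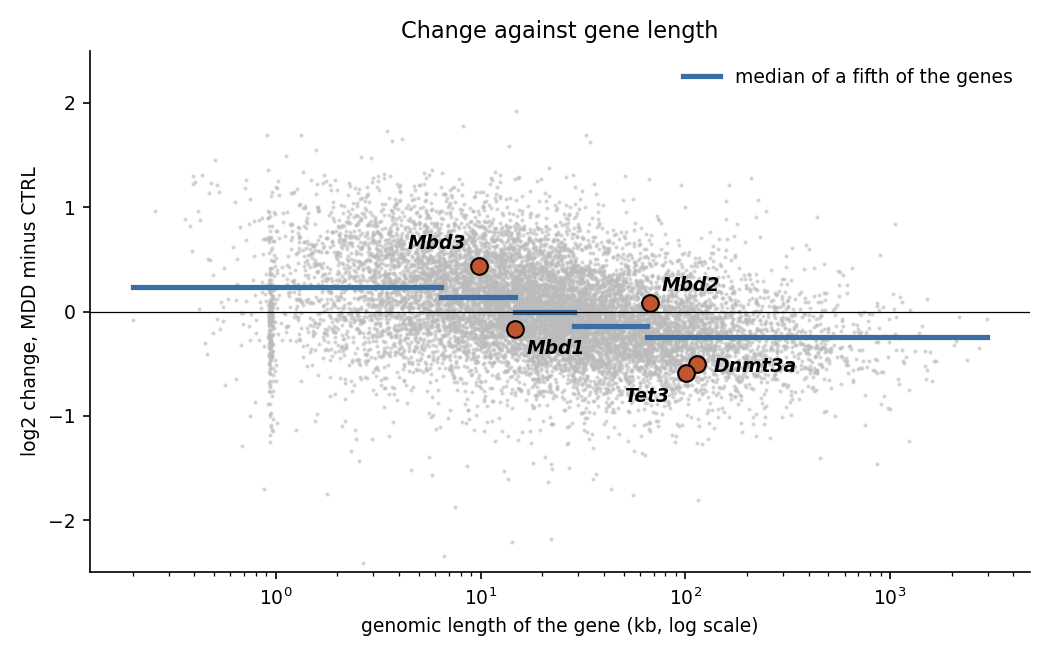
Log2 change of MDD minus CTRL (y axis) against genomic gene length (x axis, log scale) for 11961 named genes (grey; 5 more lie beyond the axis), with the 5 members in orange. Blue lines are the medians of 5 groups of nearly equal size ordered by length, from 0.24 in the shortest to -0.24 in the longest. Tet3 and Dnmt3a lie below the line of the longest genes, Mbd2 above it, Mbd3 above and Mbd1 below the line of the second group.

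Several cell type marker lists had calls too, to be read against the 20.6% of all genes and probes called. Of 10 granule neuron markers, 0 were higher and 3 lower, and their mean log2 level ran from 1.35 to 1.49 in CTRL and from 0.87 to 1.21 in MDD. Of 8 microglial markers, 6 were higher and 1 lower, with mean levels from -0.26 to -0.13 in CTRL and from 0.20 to 0.51 in MDD. Astrocyte and Bergmann glia markers were called in 14.3% (1 of 7 higher, 0 lower), beside 12.6% of all genes and probes called higher. Their mean levels ran from 2.21 to 2.32 in CTRL and from 2.43 to 2.54 in MDD. Purkinje cell markers were called in both directions (1 of 7 higher, 2 lower), and their mean levels overlapped, from 3.22 to 3.38 in CTRL and from 3.23 to 3.38 in MDD. Interneuron markers (1 of 6 higher, 2 lower) ran from 0.88 to 1.16 in CTRL and from 0.68 to 0.82 in MDD. Precursor markers of granule neurons (0 of 5 called) overlapped, from -2.42 to -2.19 and from -2.37 to -2.21. Oligodendrocyte markers had 1 of 6 lower and endothelial markers 1 of 5 higher. Lists of oligodendrocyte precursors, meninges, choroid plexus, blood and forebrain had 0 called. Choroid plexus levels ran from -1.41 to -0.71 in CTRL and from -1.54 to 0.17 in MDD. Blood levels ran from 1.42 to 2.32 in CTRL and from 1.61 to 3.29 in MDD. The part of these markers in the changes of Tet3 and Mbd3 was not tested.

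Genes of the cell cycle were listed as well, since maintenance methylation accompanies DNA replication; they are no measure of Dnmt1 or Uhrf1. Of 23 tested genes of that list, 4 were higher and 0 lower. This is 17.4%, against 20.6% of all genes and probes called in either direction and 12.6% called higher. The median log2 change was 0.19, against -0.03 for all genes and probes. The replication licensing gene Mcm3 was 1.53-fold higher (log2 0.61, SE 0.13, limma adjusted p = 0.0199). The mitotic kinase gene Cdk1 was 1.44-fold, the cyclin gene Ccne1 1.32-fold and Birc5, which codes for survivin, 1.36-fold higher, with adjusted p of 0.0331, 0.0392 and 0.0441. For each of these genes the MDD pups lay above the CTRL pups, and each lost its call in most of the 7 fits that left out an array. The genes whose log2 values followed Tet3 most closely over the 7 arrays were Nfib (Pearson r = 0.995), Bmpr2 (0.994) and Pkd2 (0.992). The groups stand apart in all of these genes, so the coefficients mostly restate the group difference and carry no p.

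The position of an array on the slide was not balanced between the groups. The slide holds its arrays in 2 rows, with CTRL replicates 1 to 3 in the first and CTRL replicate 4 with all 3 MDD arrays in the second. Within the second row Tet3 changed by -0.71, Dnmt3a by -0.90 and Mbd3 by 0.54, all at least as large as over all arrays, and with row as a block the adjusted p was 0.187, 0.171 and 0.201. That row holds a single control, CTRL replicate 4, whose spread is not measured. Of the 4 controls this pup had the highest Tet3 (-2.48) and Dnmt3a (-0.07) and the lowest Mbd3 (0.24). The changes within the row differ from those over all arrays only through this pup.

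**Figure D4:**
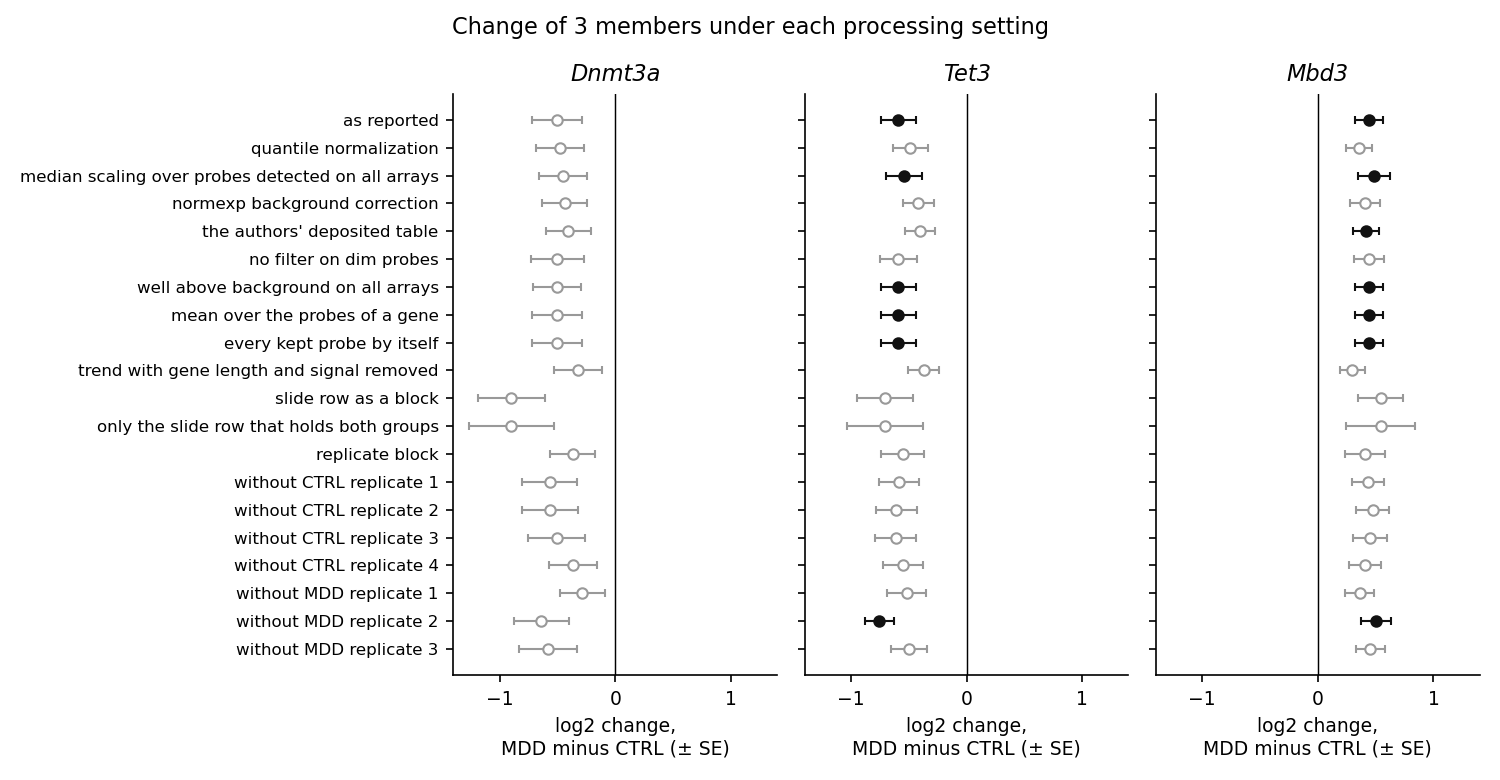
Log2 change of MDD minus CTRL (x axis, ± SE) of Dnmt3a, Tet3 and Mbd3 as reported and under each other processing setting (rows). Filled black points have an adjusted p under 0.05. Tet3 stays between -0.75 and -0.37 and Mbd3 between 0.30 and 0.54, so the direction holds in each row while the call does not, and Dnmt3a (-0.90 to -0.28) is called in no row.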

How the data were processed

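Total RNA from cerebellum was labelled with Cy3 and hybridised to 7 arrays of design 028279 (4 CTRL, 3 MDD), per the labels and file headers. The deposited scanner tables hold spot intensities from Feature Extraction 10.7.3.1, background-subtracted and detrended within the array, per the file headers, with 0 or 1 flags per spot. A further deposited table holds normalized intensities by the authors, by a method not given in the sources used here. All arrays share 1 slide and 1 scan time.

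Signals were divided by each array's 75th percentile (1136 to 2085 intensity units) and taken to log2. Control and outlier spots were left out and spots of a probe averaged. Probes well above background in at least 50% of their spots on at least 3 of 7 arrays were kept (22255 of 30367). Symbols came from accessions matched to RefSeq (assembly GRCr8), which named 18355 probes. The brightest kept probe stood for a gene, giving 11966 named genes and 8025 unnamed probes. The test was lmFit with eBayes (limma 3.58.1, R 4.3.3), two-sided, on 5 residual degrees of freedom raised to 8.40 by eBayes, adjusted by Benjamini-Hochberg over all 19991.

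Members, lists and alternatives were chosen with earlier results of these data known. Named are all members and, of each list, up to 8 genes past the threshold (failing any, the 2 of smallest p), and the 3 genes most correlated with the member of smallest p. In simulated arrays of this comparison (19991 genes, 200 of them changed), the test found 68 of 100 given a log2 change of 1. It found 1 of 100 given 0.5 and made 3 false calls. The real arrays gave 4118 calls, and the Benjamini-Hochberg cut-off is less strict where more genes change. The shares found therefore hold for 200 changed genes only. The share found with as many changes as in the real arrays was not tested. The labels name no pairs, so the numbers were not taken as pairs. Same-numbered CTRL and MDD arrays did not all deviate together, but so few pairs cannot decide the question. Alternatives changed the scaling, background correction, filter, probe choice and value table, removed the length and signal trend, blocked on slide row or replicate number, and left out each array. The scanner tables used here hold median, not mean, spot signals, and normexp used those with an offset of 50.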

Additional observations from a re-analysis of the deposited data

Results flagged for a closer look

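Among the 18 genes named from the members and lists, CTRL replicate 1 stood far from the other 3 controls in 2 of them. Mbd1 was at 0.85 there, against 0.75 to 0.76 in the others, and Usp7 at -0.54, against -0.60 in the other 3. About 1 group in 20 would be picked out by chance alone. For Mbd1 the gap was small beside the SD of the MDD pups (0.27).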

How the results depend on the processing

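Of the 5 members, 2 were called as reported. By limma, 2 remained with median scaling. The 5 members have 1 probe each, above background on every array. Their values are therefore unchanged with probes above background on all arrays, the mean over probes or every probe by itself. Only the other features of the fit and adjustment differ there. In those settings 2 also remained. Mbd3 alone (1) did in the authors' deposited table, and 0 did with quantile normalization, normexp correction, no filter, the length and signal trend removed, slide row as a block, the second slide row alone or the replicate block, although 3, 3, 2, 2, 3, 1 and 1 had an unadjusted p under 0.05. Leaving out single arrays gave 0 to 2. Of all genes and probes 4118 were called, 1597 with no filter, 1461 with the length and signal trend removed, 1 with slide row as a block, 7 in the second row alone and 1012 (without CTRL replicate 4) to 5276 (without MDD replicate 2) with single arrays left out, where leaving out any array but MDD replicate 2 lowered the number by more than 1.5 times. With the replicate block 0 were, with 6222 at an unadjusted p under 0.05, and Tet3 was at -0.55 (adjusted p = 0.111). The deviations of same-numbered arrays correlated at 0.095, -0.179 and 0.223, and those of arrays with different numbers at -0.225 to 0.154. So few pairs cannot show whether the numbers pair the pups. Signs turned for Mbd2 (-0.0421 with quantile normalization, -0.00864 in the authors' deposited table, -0.0885 to 0.263 with single arrays left out) and Cdk2ap1 (-0.0774 with quantile normalization, -0.0353 in that table). Fewer arrays or residual degrees of freedom are part of the leave-one-out and block fits, and fewer genes of the trend fit. For the others the cause was not tested. Dim probes limit Dnmt1.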
